A study of Mus musculus with 17 samples.

Results

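Distal H3K9ac regions of mouse liver are described here: stretches of chromatin enriched for histone H3 acetylated at lysine 9, lying more than 10000 bases from the nearest annotated transcription start site. They were taken from the authors' table of H3K9ac regions as those with no entry for an intron, a 5′ untranslated part or a 3′ untranslated part, a centre over 10000 bases from a start site, and a length below 4000 bases. The rule used the annotation and the length of each enriched stretch, but no level and no difference between the diets. It chose 10366 of 57499 regions (18%). The series compares livers of C57BL/6 mice, an inbred laboratory strain, that ate a diet with 60% of its calories from fat (HFD) or a control diet with 18% (CD) for 10 weeks. H3K9ac was measured in 3 HFD libraries (A, B and D) and 3 CD libraries (A, C and D), and polyadenylated RNA in 4 HFD and 4 CD libraries (A to D each). The design gives 4 mice, but no library label names a mouse, so p-values measure the spread between these libraries. Age and sex were not given in the sources used here. The libraries were made from liver tissue with all its cell types, so a change in cell numbers and a change per cell cannot be told apart. An input library and the open-chromatin libraries, all from CD livers, were not analysed here.

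Acetylation of lysine 9 on histone H3 is placed by acetyltransferases that transcription factors recruit, and it marks active promoters and active enhancers. Enhancers are distal elements that bind transcription factors and act on promoters over a distance. In liver they carry the binding sites of factors that respond to feeding, hormones and lipids.

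The name "intergenic" held for only a part of these regions. Against the RefSeq gene table of the same genome build, 4455 of the 10366 (43%) overlapped the body of a gene, and 2376 overlapped a protein-coding gene. Where start sites were compared, on all chromosomes but 1, 420 of 10058 (4.18%) held a RefSeq start site, against 174 of 13646 deep intronic regions (1.28%) and 9848 of 13472 promoter-proximal regions (73.1%). Deep intronic regions are those with an intron entry, the same distance bound and the same length bound, and promoter-proximal regions lie within 1000 bases of a start site. Start sites of lncRNA genes, whose transcripts are long and not translated, occurred in 292 distal regions, and those of protein-coding genes in 137. The regions are therefore called distal below. The region just inside the distance bound, 10003 bases from Sc5d, had 3.14 CPM (the count relative to the scaled library total), and the one just outside, 9998 bases from Cdk5rap3, had 1.85 CPM. The longest member, with 3997 bases, had 31.7 CPM, and the shortest of the 32 regions left out for their length, with 4009 bases, had 298 CPM.

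The sequences at start sites inside distal regions are shown for 7 members on which later results turn: 5 that differed between the diets and 2 of high level that did not pass the test. Each runs from 250 bases before to 50 bases after a RefSeq start site, 5′ to 3′ on the strand of the gene, with the build GRCm38.p6. Capitals mark letters of motifs, searched on both strands with overlaps allowed. The E-box, bound by clock factors and by ChREBP, was searched as CACGTG. The cyclic AMP response element was searched as TGACGTCA, and the D-box of clock output factors as TTATGTAA. The half-site of nuclear receptors was searched as AGGTCA, the forkhead site as TGTTTAC and the C/EBP site as TTGCGCAA. The TATA box was searched as TATAAA, the site of NF-Y as CCAAT and that of Sp1 as GGGCGG. Gm30509, a lncRNA gene, starts in the region 15375 bases upstream of Sik1 (chr17:31871054-31871353, minus strand). Gm39071, another lncRNA gene, starts in the region 29089 bases upstream of Dkk3 (chr7:112187854-112188153, minus strand). Mlxipl, which encodes the carbohydrate-responsive factor ChREBP, starts in a region whose nearest gene by the authors' table is Vps37d (chr5:135089640-135089939, plus strand). Osbpl5, an oxysterol-binding protein family gene, starts in a region assigned to Mrgprg (chr7:143756959-143757258, minus strand). Cd276, an immune checkpoint ligand, starts at chr9:58554984-58555283 (minus strand), Zranb1, a deubiquitinase, at chr7:132930926-132931225 (plus strand) and Pcgf5, a Polycomb subunit, at chr19:36348079-36348378 (plus strand).
Gm30509: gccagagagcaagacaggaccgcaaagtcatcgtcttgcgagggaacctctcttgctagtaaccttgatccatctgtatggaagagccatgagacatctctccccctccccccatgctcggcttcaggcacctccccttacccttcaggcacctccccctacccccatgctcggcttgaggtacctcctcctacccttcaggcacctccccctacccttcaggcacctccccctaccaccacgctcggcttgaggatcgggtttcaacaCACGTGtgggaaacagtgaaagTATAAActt
Gm39071: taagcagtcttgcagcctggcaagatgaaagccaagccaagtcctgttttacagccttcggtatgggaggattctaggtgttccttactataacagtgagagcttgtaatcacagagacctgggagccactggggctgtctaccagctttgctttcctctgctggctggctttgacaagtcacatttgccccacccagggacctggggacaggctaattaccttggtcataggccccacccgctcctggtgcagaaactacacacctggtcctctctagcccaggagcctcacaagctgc
Mlxipl: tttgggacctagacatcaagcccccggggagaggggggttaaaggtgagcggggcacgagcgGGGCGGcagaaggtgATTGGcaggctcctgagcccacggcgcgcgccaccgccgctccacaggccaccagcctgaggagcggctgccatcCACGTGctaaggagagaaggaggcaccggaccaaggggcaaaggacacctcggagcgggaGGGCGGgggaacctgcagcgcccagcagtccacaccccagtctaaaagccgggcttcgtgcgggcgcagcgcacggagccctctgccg
Osbpl5: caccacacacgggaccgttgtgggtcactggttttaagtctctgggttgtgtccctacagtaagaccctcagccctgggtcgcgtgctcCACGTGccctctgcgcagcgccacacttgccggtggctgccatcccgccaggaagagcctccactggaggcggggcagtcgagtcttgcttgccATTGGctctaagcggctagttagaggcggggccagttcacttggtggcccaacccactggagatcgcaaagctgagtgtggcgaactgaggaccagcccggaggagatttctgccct
Cd276: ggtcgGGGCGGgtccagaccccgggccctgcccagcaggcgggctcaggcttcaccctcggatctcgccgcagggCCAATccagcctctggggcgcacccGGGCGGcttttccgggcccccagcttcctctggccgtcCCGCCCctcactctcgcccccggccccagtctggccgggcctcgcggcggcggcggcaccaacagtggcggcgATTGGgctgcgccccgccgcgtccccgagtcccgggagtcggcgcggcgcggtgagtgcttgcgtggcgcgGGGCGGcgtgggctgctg
Zranb1: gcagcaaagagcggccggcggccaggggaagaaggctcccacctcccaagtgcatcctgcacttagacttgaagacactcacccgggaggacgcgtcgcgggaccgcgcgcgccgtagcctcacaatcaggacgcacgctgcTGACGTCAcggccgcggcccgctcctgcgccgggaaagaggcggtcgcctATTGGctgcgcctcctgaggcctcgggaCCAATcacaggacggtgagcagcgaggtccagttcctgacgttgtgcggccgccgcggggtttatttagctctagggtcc
Pcgf5: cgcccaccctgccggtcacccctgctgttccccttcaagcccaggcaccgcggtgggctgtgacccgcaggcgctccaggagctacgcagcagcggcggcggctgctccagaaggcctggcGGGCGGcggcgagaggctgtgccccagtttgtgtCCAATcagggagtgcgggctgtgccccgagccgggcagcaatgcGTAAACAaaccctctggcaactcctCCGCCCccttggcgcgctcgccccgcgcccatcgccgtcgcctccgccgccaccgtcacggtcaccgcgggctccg

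These sequences ranged from poor to rich in CpG, the dinucleotide that is dense at the promoters of broadly expressed genes. The Gm39071 sequence had 54% G and C with 2 CpG, Gm30509 57.3% with 9, Osbpl5 62% with 16 and Mlxipl 69.3% with 25. The Cd276 sequence had 78.3% with 39 CpG, Zranb1 67% with 33 and Pcgf5 73% with 34. Over the 504 RefSeq start sites inside distal regions the median was 55.7% G and C with 9 CpG, between the medians of all 32851 start sites (52.7% and 7) and of the 13146 start sites in promoter-proximal regions (62.3% and 22). Within the distal regions, lncRNA start sites had a median of 7 CpG and protein-coding ones 18. The E-box letters stood in 8.93% of the 504, against 7.15% of all start sites, the cyclic AMP response element in 1.98% against 1.79%, and the half-site in 15.9% against 16.3%. The other shares were 36.3% against 35.7% for the Sp1 letters, 33.3% against 37.4% for CCAAT, 3.77% against 3.65% for the forkhead letters, 0.397% against 0.938% for the D-box and 0.198% against 0.183% for the C/EBP letters. The TATA box letters stood in 6.75% of the start sites in distal regions, against 13.6% of all. These are letter matches and not sites of binding.

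Distal regions were short and of low level, and they resembled the deep intronic ones. Their median length was 462 bases (quartiles 319 and 760), against 442 bases in deep introns and 1318 bases at promoters. The rule bounded distal and deep intronic lengths at 4000 bases, while promoter-proximal regions had no bound and reached 13448 bases. The bound left out 32 distal regions. Their median level was 4.72 CPM per kb, against 4.46 CPM per kb in deep introns and 24.5 CPM per kb at promoters. A region of median level had 2.15 CPM, and the 1036 highest regions (10%) held 55.4% of all counts in distal regions. Of those 1036, 15.7% held a start site, against 1.25% of the 1036 lowest. The median level of regions with a start site was 7.42 CPM per kb, against 4.69 CPM per kb in the rest. A count of 3, the floor of detection, corresponded to 0.247 to 0.324 CPM, and 0 regions were at or under it in every library.

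**Figure D1:**
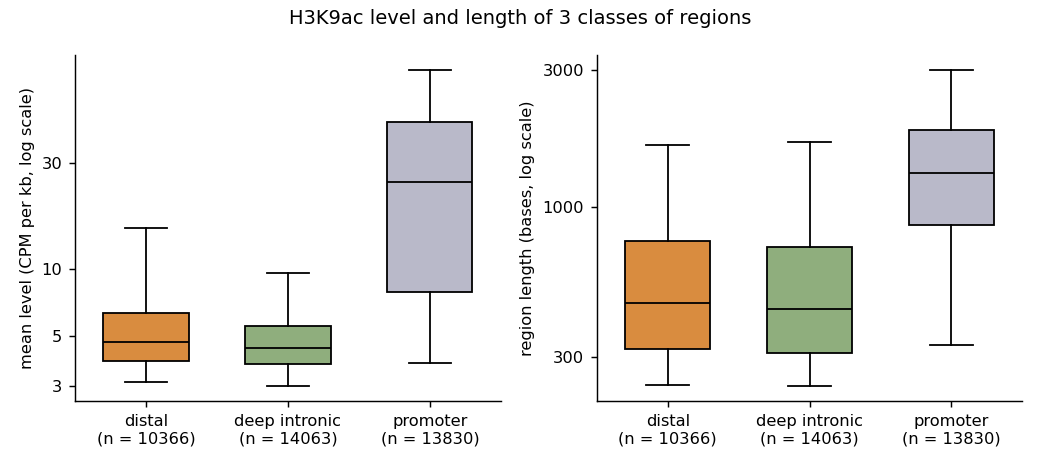
Level (left, CPM per kilobase, mean of 6 libraries, log scale) and length (right, bases, log scale) of distal, deep intronic and promoter-proximal regions. Boxes span the quartiles with the median as a line, and whiskers run from the 5th to the 95th percentile. The distal median of 4.72 CPM per kb lies beside that of deep introns (4.46) and below that of promoters (24.5).

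The regions of highest level per length often held a start site. Of the 50 highest, 23 held a RefSeq start site, and 1 differed between the diets. The called share was 2.43% of all distal regions and 8.82% of those at or above 20 CPM. The highest, 10246 bases upstream of the annotated start of Zfhx3, a homeobox transcription factor, and within its RefSeq gene body (chr8:108703566-108705228), had 183, 170 and 209 CPM in HFD A, B and D and 181, 202 and 237 CPM in CD A, C and D, or 118 CPM per kb. The diets overlapped there (log2 change -0.14, SE 0.08, adjusted p = 0.541). Next came regions near 4931406P16Rik (115 CPM per kb), Arhgap5 (112), Phf3 (111) and Gltscr1l, a chromatin remodelling subunit (106). The region of Zranb1 had 96.8 CPM per kb and that of Pcgf5 82.6. Btf3l4, Arid1a, a SWI/SNF subunit, and Pisd-ps1 completed the 10 highest with 91, 85.4 and 82.7 CPM per kb. By total level the 10 highest also held regions near Foxp1, Bach2, Zfp541, Myo18a and Fignl2. By edgeR, 0 of these 15 passed, with adjusted p values from 0.191 to 0.979. At Foxp1, a forkhead factor, the values were 233, 235 and 245 CPM in HFD A, B and D, against 259, 279 and 271 CPM in CD A, C and D (log2 change -0.18, adjusted p = 0.191), and the diets did not overlap.

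The share of H3K9ac counts in distal regions was similar under both diets. It was 5.71%, 5.76% and 5.45% in HFD A, B and D and 5.85%, 5.73% and 5.71% in CD A, C and D. The means were 5.64 ± 0.168% in HFD and 5.76 ± 0.0748% in CD (SD, n = 3 each), a difference of -0.122 percentage points with p = 0.5 in a two-sided exact permutation test, in which 3 against 3 libraries cannot go below 0.1. HFD D had the lowest share, and also the highest promoter share (73%, against 71.1% and 70.9% in the other HFD libraries and 70.6% to 71.7% in CD). Without HFD D the difference was -0.0263 percentage points. The log2 ratio of distal to promoter counts was -3.67 ± 0.0658 in HFD and -3.63 ± 0.0319 in CD (SD, n = 3 each, exact p = 0.6). That of distal to deep intronic counts was 0.076 ± 0.0439 in HFD and 0.0779 ± 0.0371 in CD (exact p = 0.9). The median log2 change of single distal regions was -0.02, with 4940 above and 5426 below 0.

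Counted without regard to level, single distal regions differed between the diets about as often as regions in general. Most of those that differed were lower in HFD. Within each level range given below, the called share was higher in distal regions than in all regions. It was 0.413% against 0.34% under 2 CPM and 8.82% against 5.02% at or above 20 CPM, and these differences were not tested. In a fit over all regions 252 of the 10366 passed an adjusted p of 0.05 (2.43%, against 2.39% of all regions). Of these, 62 were higher in HFD (0.598%, against 0.835% of all regions) and 190 lower (1.83%, against 1.55%). Lower ones made up 75.4% of the calls, against 66.7% among deep intronic, 56% among promoter-proximal and 65% among all regions, and whether these shares differ was not tested. Without HFD D the count was 318, with 126 higher and 192 lower, so that 60.4% were lower. Scaling by the distal regions alone gave 88 higher and 177 lower (66.8% lower). Without HFD B the count was 102, 17 higher and 85 lower, and without CD C it was 149, 30 higher and 119 lower. DESeq2 called 145. In 84 of the 252 the call held whichever of the 6 libraries was left out. The diets did not overlap in 1637 distal regions (15.8%, against 15.4% of all), 661 higher and 976 lower in HFD, and in 234 of the 252. By the authors' deposited table, 270 distal regions had a false discovery rate below 0.05, 73 higher and 197 lower, and 240 of them are among the 252. Over all regions that table had 1382 (2.4%).

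Calls were more frequent where the level was high, and changed little with distance. Of 4844 distal regions under 2 CPM 0.413% were called, and of 3270 between 2 and 5 CPM 2.45%. Of 1742 between 5 and 20 CPM 6.14% were called, and of 510 at or above 20 CPM 8.82%. In the same order the shares of all regions were 0.34%, 2%, 4.95% and 5.02%, each below the distal one. At or above 20 CPM deep introns had 12% and promoters 3.49%, and whether these shares differ was not tested. The shares of distal regions whose diets did not overlap were less uneven: 587 of the 4844 and 116 of the 510. Regions 10000 to 20000 bases from a start site had 23 higher and 57 lower of 3451, and those 20000 to 50000 bases away 22 higher and 79 lower of 4004. Those 50000 to 100000 bases away had 10 higher and 38 lower of 1835, and those beyond had 7 higher and 16 lower of 1076. The called share was 2.63% upstream and 2.18% downstream of the nearest start. It was 2.47% of regions that overlap a RefSeq gene and 2.4% of the others. Called regions were long: the median length was 828 bases for those higher and 924 bases for those lower in HFD, against 456 bases for the rest.

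**Figure D2:**
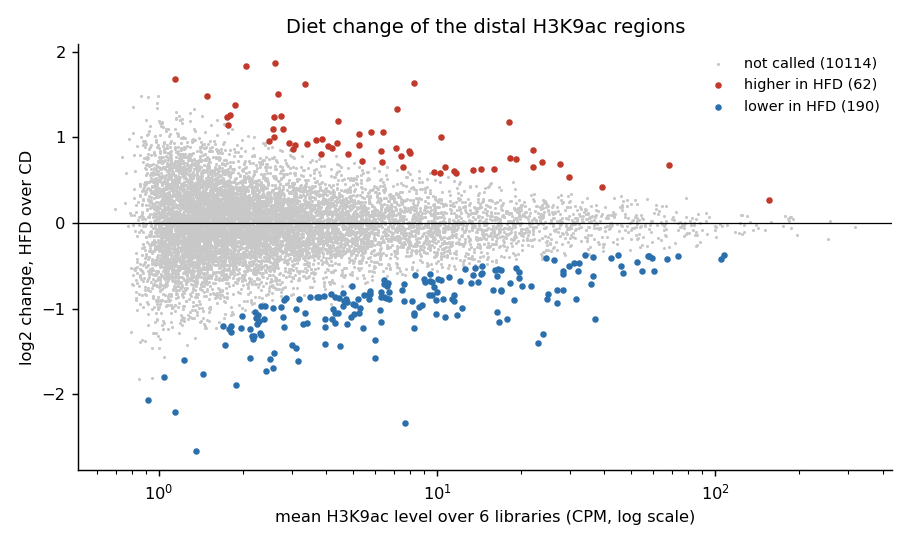
Change of each of the 10366 distal regions (y axis, log2 of HFD over CD) against its mean level over 6 libraries (x axis, CPM, log scale). Red points are the 62 regions higher and blue points the 190 lower in HFD at an adjusted p of 0.05, and grey points did not pass. The called changes range from -2.66 to 1.86.

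Among called regions of at least the median level whose diets did not overlap, the largest increase was near Aldh3a1, an aldehyde dehydrogenase, within the neighbouring gene Aldh3a2 (chr11:61235790-61236179). It had 3.83, 5.56 and 2.97 CPM in HFD A, B and D, against 1.16, 1.42 and 0.792 CPM in CD A, C and D (log2 change 1.86, SE 0.29, adjusted p = 1.13e-05). All HFD values lay above all CD values. Both distal regions flanking Mfsd2a, a transporter of lysophospholipids, followed. The one 10652 bases upstream (chr4:122971140-122972539) had 16, 13.3 and 8.13 CPM in HFD A, B and D, against 3.22, 4.67 and 4.26 CPM in CD A, C and D (log2 change 1.63, SE 0.20, adjusted p = 3.73e-08). The one 11908 bases downstream, within the gene (chr4:122948652-122949906), had 5.79, 5.04 and 4.39 CPM in HFD, against 1.7, 1.75 and 1.49 CPM in CD (log2 change 1.62, SE 0.25, adjusted p = 7.71e-06). The diets were apart in both. A further region of the same stretch, 13917 bases upstream of Mycl, a Myc family gene (chr4:122981453-122982574), had 7.07, 6.26 and 4.94 CPM in HFD and 2.14, 2.58 and 3.37 CPM in CD (log2 change 1.19, SE 0.23, adjusted p = 0.000401).

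All 3 distal regions assigned to C230024C17Rik were higher in HFD. The longest (chr1:153696615-153699121), within Rgs8, a regulator of G-protein signalling, had 27.3, 25.5 and 22.8 CPM in HFD A, B and D, against 12.3, 8.42 and 12.9 CPM in CD A, C and D (log2 change 1.18, SE 0.14, adjusted p = 1.53e-08). Its neighbours had log2 changes of 1.33 (adjusted p = 3.17e-06) and 0.87 (adjusted p = 0.0205, and up to 0.295 with a library left out). A region 33397 bases upstream of Bmp6, a secreted factor that drives hepcidin (chr13:38312064-38312572), had 4.85, 3.56 and 3.4 CPM in HFD and 1.16, 0.917 and 2.18 CPM in CD (log2 change 1.51, SE 0.29, adjusted p = 0.000348). The promoter region of Bmp6 differed in the other direction, with 34.5 ± 3.91 CPM in HFD and 45.3 ± 5.39 CPM in CD (SD, n = 3 each, log2 change -0.40, adjusted p = 0.0185). The remaining increases of the 10 were near Cyld, a deubiquitinase (1.24), Ly6f, a Ly6 family surface protein (1.24), and Tcp11l1 (1.10). The calls of Cyld, Ly6f and Tcp11l1 were lost without HFD B, with adjusted p values up to 0.138 over the 6 fits that leave out a library.

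Under the same limits of level and overlap, the largest decrease was near Selenbp2, a selenium-binding protein gene of higher level in male than in female mouse liver (chr3:94682296-94683617). It had 1.96, 2 and 3.84 CPM in HFD A, B and D, against 19.5, 13.4 and 5.35 CPM in CD A, C and D (log2 change -2.34, SE 0.26, adjusted p = 2.25e-09). CD D lay far below the other CD libraries and just above HFD D. It was also the lowest CD library in the other 3 called regions of Selenbp2 and in both called regions assigned to Gm16551, in all of which the diets overlapped through CD D. At the Selenbp2 region 13094 bases upstream the values were 9.71, 9.73 and 11.9 CPM in HFD and 33.1, 24.4 and 11.5 CPM in CD (log2 change -1.16, SE 0.18, adjusted p = 1.24e-05). By the authors' deposited table the false discovery rate was 0.176 there. It was 0.103 and 0.0832 at the Selenbp2 regions downstream, and 0.318 and 0.585 at those of Gm16551. These calls thus did not pass in the authors' table, while the first Selenbp2 region did (0.0118). Reads could be split between Selenbp2 and its near-identical copy Selenbp1, so the RNA value of Selenbp2 is uncertain. It was 208, 181, 404 and 267 CPM in HFD A to D, against 1875, 851, 1124 and 714 CPM in CD A to D (log2 change -2.11, adjusted p = 0.00361).

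Decreases near Tssc1, Sik1 and Cars2 were more even. At Tssc1, 147736 bases downstream of the start (chr12:28898524-28900603), the values were 13.3, 11.6 and 13.1 CPM in HFD A, B and D, against 33.3, 32.4 and 34.3 CPM in CD A, C and D (log2 change -1.40, SE 0.12, adjusted p = 6.92e-13). At the Gm30509 start 15375 bases upstream of Sik1, a kinase that restrains cyclic AMP-driven transcription (chr17:31870731-31871601), they were 2.9, 3.56 and 2.53 CPM in HFD and 8.48, 9.5 and 9.01 CPM in CD (log2 change -1.57, SE 0.21, adjusted p = 1.57e-07). Each diet's values lay close together, with a gap of more than the range of either. Downstream of the start of Cars2, a mitochondrial cysteinyl-tRNA synthetase, and within that gene (chr8:11529893-11530799), they were 2.21, 2.78 and 2.2 CPM in HFD and 6.7, 6 and 6.93 CPM in CD (log2 change -1.44, SE 0.22, adjusted p = 1.05e-05). The other decreases of the 10 were near 3930402G23Rik (log2 change -1.73), 4930597G03Rik (-1.61), Ppp1r3b (-1.59), Dyrk2, a kinase (-1.52), 1700036G14Rik (-1.46) and Tie1, an endothelial receptor (-1.42). The Tie1 call was lost without CD A (adjusted p = 0.148). Below that level, a region of Clpx, a mitochondrial protease subunit, with a mean of 1.36 CPM had a larger fitted decrease (-2.66). One of Mycl with 2.05 CPM had an increase (1.83) just under that near Aldh3a1 (1.86). Of the 20 regions of at least median level 16 kept their call in every fit that left out a library.

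**Figure D3:**
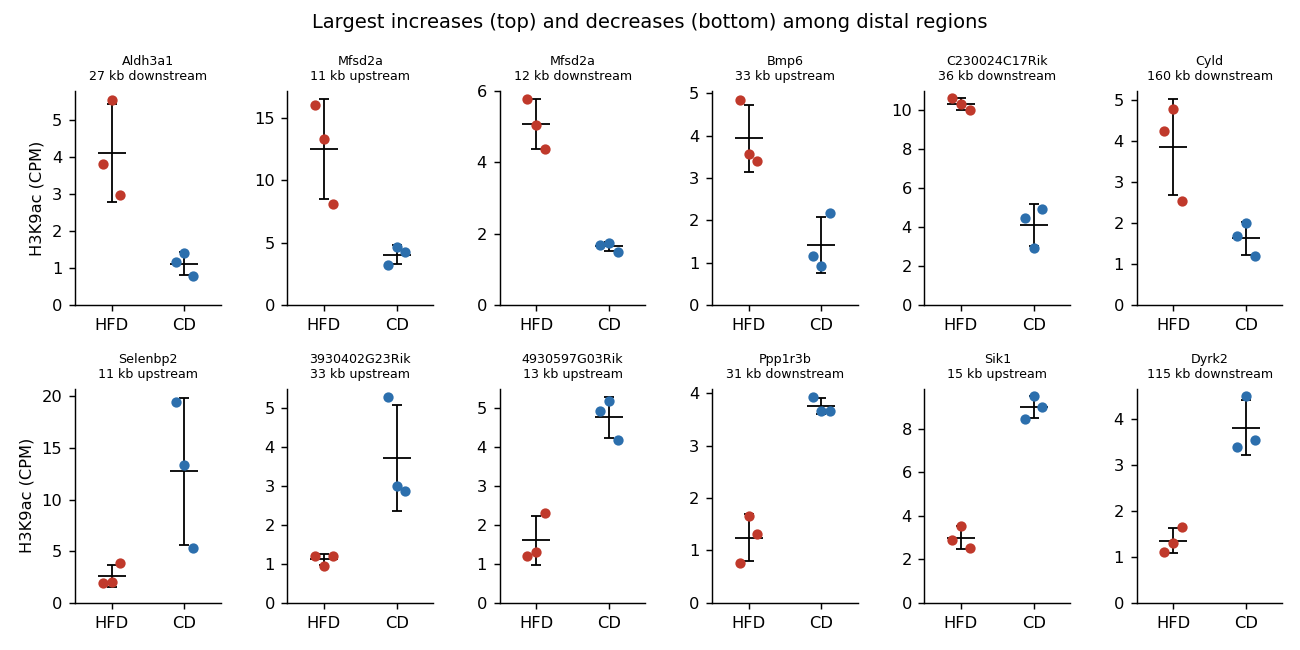
H3K9ac level (y axes, CPM, each starting at 0) of 6 regions with the largest increase (top) and 6 with the largest decrease (bottom), among called regions of at least the median level chosen for lack of overlap between the diets, in HFD libraries (left, red) and CD libraries (right, blue). Points are libraries, and bars the mean ± SD of 3. Headings give the nearest gene and the distance to its start. At Selenbp2 the CD values run from 5.35 to 19.5.

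Distal regions gathered in runs. Joined across gaps of up to 12500 bases, the 10366 formed 5626 runs, of which 3705 were single regions and 341 held 5 or more. The 2669 regions in those 341 had 9 higher and 80 lower (3.33% called, median level 2.51 CPM), and the 3705 single ones 26 higher and 42 lower (1.84% called, median level 1.95 CPM). The longest run (chr8:120242706-120427617) held 47 regions near A330074K22Rik and Gse1, and the next (chr2:167744068-167895305) held 46 near A530013C23Rik and Ptpn1, a phosphatase that acts on the insulin receptor. Of those 2 and 1 were called, all lower in HFD.

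The nearest genes with the most distal regions were Tomm20 with 36, Slc45a1 with 31, and Irf2bp2, A530013C23Rik, Gm17746, A330074K22Rik and Sik1 with 30 each. To describe such loci, the counts of all distal regions with the same nearest gene were summed and fitted, an analysis added after the regions had been seen. Of 4505 sums 148 passed (3.29%), 50 higher and 98 lower in HFD. The count was 77 without HFD A, 64 without HFD B and 85 without CD C. Among the 101 genes with at least 10 distal regions 0 were higher and 13 lower.

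At Irf2bp2, a transcriptional co-repressor, 26 of 30 regions had a log2 change below 0, 8 were called, and all of those were lower in HFD. The sum was 266, 242 and 237 CPM in HFD A, B and D, against 361, 371 and 305 CPM in CD A, C and D (log2 change -0.47, SE 0.08, adjusted p = 0.000132). The diets were apart. The called regions lay 19777 to 142514 bases upstream, and 3 of the 8 kept their call whichever library was left out. One of those, 68213 bases upstream (chr8:126660188-126663108), had 54.8, 45.4 and 45.7 CPM in HFD A, B and D, against 79.2, 78.5 and 56.6 CPM in CD A, C and D (log2 change -0.56, SE 0.10, adjusted p = 0.00011). The promoter region of Irf2bp2 was also lower (507 ± 9.37 CPM in HFD and 603 ± 36.2 CPM in CD, SD, n = 3 each, log2 change -0.25, adjusted p = 0.0123).

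At Gadd45g, a stress-inducible gene, 16 of 17 regions had a log2 change below 0 and 6 were called, all lower, of which 1 kept its call whichever library was left out. Their sum was 37, 35.2 and 31.3 CPM in HFD A, B and D, against 60.9, 59.7 and 50.8 CPM in CD A, C and D (log2 change -0.73, SE 0.11, adjusted p = 2.8e-05), and the promoter region was lower too (log2 change -0.42, adjusted p = 0.00115). At Ppp1r3b, which brings protein phosphatase 1 to glycogen, all 5 called regions lay 31306 to 42906 bases downstream of the start (chr8:35406886-35419251) and were lower. The sum over its 13 regions was 85.8, 72.9 and 72.2 CPM in HFD and 140, 122 and 96.8 CPM in CD (log2 change -0.64, SE 0.10, adjusted p = 9.84e-05). Both sums were without overlap between the diets, and the 5 regions of Ppp1r3b kept their calls whichever library was left out.

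Dkk3, a Dickkopf family gene, had 6 distal regions, of which 3 were called and lower, led by the one with the Gm39071 start (chr7:112187148-112189143). That region had 13.7, 12.3 and 15.8 CPM in HFD A, B and D, against 32.2, 34.8 and 35.7 CPM in CD A, C and D (log2 change -1.30, SE 0.12, adjusted p = 9.13e-12). The Dkk3 sum was 29.5 ± 2.37 CPM in HFD and 58 ± 1.99 CPM in CD (SD, n = 3 each, log2 change -0.98, adjusted p = 7.28e-08), while its promoter region did not pass (log2 change -0.14, adjusted p = 0.895). At Sik1 4 of 30 regions were called and lower, 15375 to 84285 bases upstream, with 19 of 30 below 0. Its sum had a log2 change of -0.32 (adjusted p = 0.0298, but up to 0.193 with a library left out), and its promoter region -0.29 (adjusted p = 0.0117). Tomm20, a mitochondrial import receptor, had 1 called region, and its sum did not pass (log2 change -0.26, adjusted p = 0.0871). The sums of Slc45a1, Gm17746 and A330074K22Rik did not pass either, and A530013C23Rik had a log2 change of -0.27 (adjusted p = 0.0323, but up to 0.276 with a library left out). The sums of Irf2bp2, Gadd45g, Ppp1r3b, Dkk3 and C230024C17Rik passed whichever library was left out, with adjusted p values of at most 0.0115. These loci hold 3 or more regions called in the same libraries and were named after those calls were seen. Their sums therefore restate the calls and give no separate support.

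**Figure D4:**
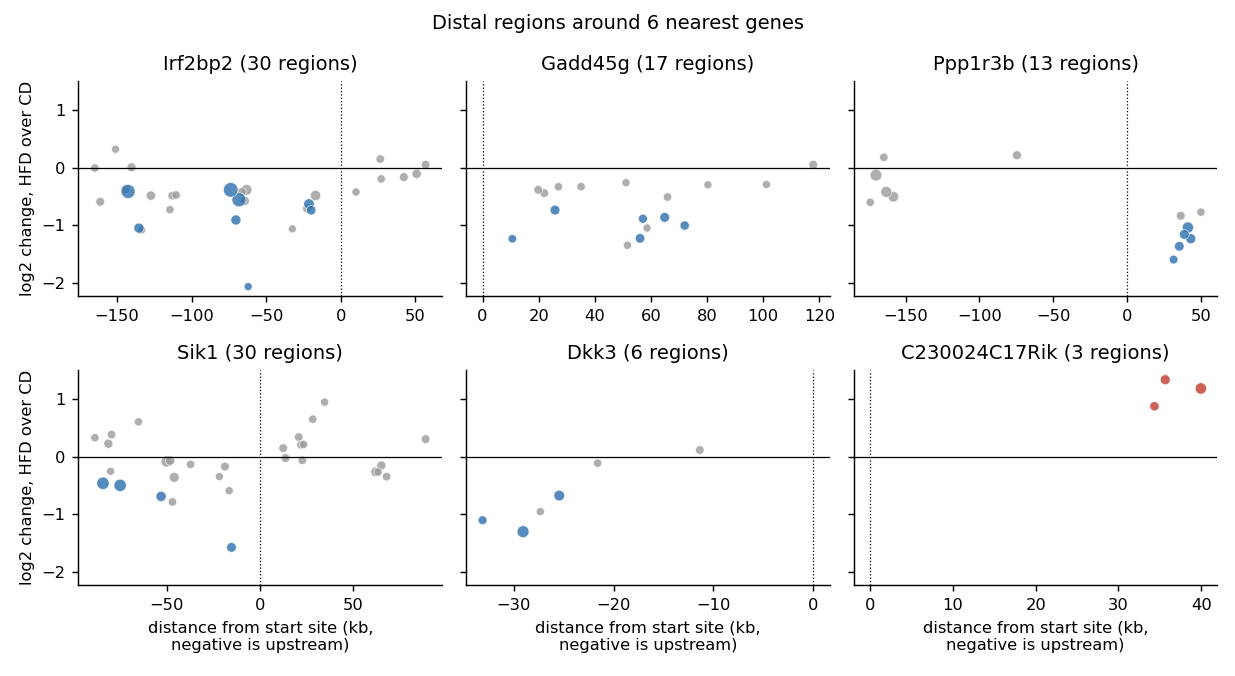
Change of every distal region (y axes, log2 of HFD over CD) by distance to the start site of its nearest gene (x axes, kilobases, negative upstream), for 6 genes. Blue points are called lower and red points called higher in HFD, grey points did not pass, and larger points have a higher level. At Ppp1r3b the 5 called regions lie together 31306 to 42906 bases downstream, and at Irf2bp2 the 8 called ones lie upstream.

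Of the regions with a RefSeq start site, 2 were higher and 11 lower in HFD (3.1% of 420, against 2.4% of the other distal regions and 2.39% of all regions). The region of the Mlxipl start (chr5:135089382-135091410) had 44, 40.8 and 48 CPM in HFD A, B and D, against 60.7, 57.7 and 76.7 CPM in CD A, C and D (log2 change -0.56, SE 0.10, adjusted p = 8.88e-05). All HFD values were lower, and the RNA of Mlxipl did not pass (log2 change -0.31, adjusted p = 0.258). The region of the Cd276 start (chr9:58554460-58555781) had 35, 33 and 45.9 CPM in HFD and 49.1, 52.2 and 59.1 CPM in CD (log2 change -0.50, SE 0.10, adjusted p = 0.00135, but 0.108 without HFD B). The RNA of Cd276 was lower as well, with 1.81, 1.66, 3.23 and 3.13 CPM in HFD A to D, against 5.65, 8.53, 7.56 and 9.68 CPM in CD A to D (log2 change -1.68, SE 0.25, adjusted p = 0.00298). The region of the Osbpl5 start (chr7:143754910-143758338) was higher, with 32.2, 32.8 and 20.2 CPM in HFD and 17, 14.1 and 16.5 CPM in CD (log2 change 0.85, SE 0.14, adjusted p = 1.95e-05), and the RNA of Osbpl5 did not pass (log2 change -0.05, adjusted p = 0.946).

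RNA was measured for 2958 of the 4505 nearest genes, and 325 of them passed an adjusted p of 0.05 (11%, against 7.27% of all genes), 169 higher and 156 lower in HFD. Without HFD B the count was 185. Where both a region and the RNA of its gene passed, the directions were equal for 51 of 53 regions. Of 43 regions higher in HFD with a measured gene, the RNA was higher for 12, lower for 0 and not called for 31 (27.9% higher, against 3.63% of all genes and 6.58% beside uncalled distal regions). Of 143 regions lower in HFD, the RNA was lower for 39, higher for 2 and not called for 102 (27.3% lower, against 3.64% of all genes and 5.7% beside uncalled distal regions). Counted by gene, these were 10 of 39 genes that rose and 27 of 101 genes that fell. Across 7190 distal regions with a measured gene the changes had a Pearson r of 0.24, a description across regions that share libraries and often a gene. A promoter-proximal region existed for 33 of the 54 nearest genes of regions higher in HFD, of which 8 were higher and 1, Bmp6, was lower. It existed for 98 of the 137 nearest genes of lower regions, of which 19 were lower and 1 higher. Of all promoter-proximal regions 1.2% were higher and 1.53% lower in HFD.

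The RNA of Mfsd2a was 208, 214, 57.5 and 77.1 CPM in HFD A to D, against 4.94, 6.79, 6.7 and 8.43 CPM in CD A to D (log2 change 4.37, SE 0.44, adjusted p = 0.000355). Every HFD value lay above every CD value, while the HFD libraries differed among themselves. Sall1, a zinc finger factor, with called regions 228430 and 273626 bases upstream (log2 changes 1.06 and 0.91, the second lost without HFD B or CD C), had RNA of 28.6, 36.9, 27.3 and 25.9 CPM in HFD and 14.7, 17.6, 19.5 and 21 CPM in CD (log2 change 0.71, SE 0.15, adjusted p = 0.0153, but up to 0.054 with a library left out). A region 53311 bases upstream of Cyp2b9, a cytochrome P450, had 2.73, 2.26 and 1.54 CPM in HFD and 0.804, 0.583 and 0.99 CPM in CD (log2 change 1.48, SE 0.38, adjusted p = 0.0169, and 0.233 at the highest with a library left out). Its RNA was 56.8, 67.4, 30.5 and 27.3 CPM in HFD, and at most 0.031 CPM, below 3 counts, in every CD library (adjusted p = 6.25e-06). Near-identical Cyp2b genes could share these reads. The other genes with both higher were 9030619P08Rik, Cyth1, Fam214a, Hlf, Lipg, Slc22a29 and Spry4. The region of Slc22a29 kept its call whichever library was left out. The regions of the other 6 lost theirs in 1 to 5 of the 6 fits, and the RNA call of Fam214a was lost in 7 of 8 fits.

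Among the genes with both lower was Chka, choline kinase alpha, which starts phosphatidylcholine synthesis. Its region 18081 bases upstream (chr19:3832763-3834619) had 23.4, 21.4 and 25.3 CPM in HFD A, B and D, against 56.2, 54.3 and 41.5 CPM in CD A, C and D (log2 change -1.12, SE 0.11, adjusted p = 2.55e-11). Its RNA was 22.2, 18.5, 32.5 and 36.4 CPM in HFD A to D, against 81.4, 66.6, 91.8 and 119 CPM in CD A to D (log2 change -1.71, SE 0.24, adjusted p = 0.00174). Neither assay had overlapping diets, and the Chka promoter region was lower too (log2 change -0.44, adjusted p = 7.55e-05). Fam222a had regions 15435 and 10096 bases upstream with log2 changes of -1.08 and -0.89 and an RNA change of -2.44 (adjusted p = 5.05e-05). Osgin1, an oxidative stress response gene, had -0.61 and -0.74 at its regions (the second with an adjusted p of 0.104 without HFD B) and -1.51 in RNA (adjusted p = 0.000893). Ephx1, the microsomal epoxide hydrolase, had -0.88 at its region and -1.24 in RNA (adjusted p = 0.00208), and Pvrl1, the cell adhesion molecule nectin-1, had -0.94, -0.89 and -1.23 at its regions (the last 2 lost without HFD B) and -0.63 in RNA (adjusted p = 0.00743). For 2 genes the assays ran opposite. Acot11, an acyl-CoA thioesterase, had a region at -1.07 (adjusted p = 5.45e-06) with RNA at 1.19 (adjusted p = 0.00127). Nnmt, nicotinamide N-methyltransferase, had a region at -0.82 (adjusted p = 0.0194, but up to 0.112 with a library left out) with RNA at 1.34 (adjusted p = 0.00409).

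At other loci described above the nearest gene's RNA missed the threshold, 7 of them given here. Its log2 change was -0.57 for Irf2bp2 (adjusted p = 0.133), -1.84 for Gadd45g (0.102), -0.89 for Sik1 (0.138), 0.25 for Ppp1r3b (0.502), -0.30 for Dkk3 (0.637), 0.03 for Tssc1 (0.948) and 0.03 for Bmp6 (0.969). Gadd45g RNA was 28.1, 17.3, 5.48 and 7.39 CPM in HFD A to D, against 76.7, 71.5, 48.7 and 11.5 CPM in CD A to D. CD D lay within the HFD range. Numbers of unstated meaning in the RNA column names differ between the diets and cannot be told apart from them, and the hour of collection is not given in the sources used here. Summed RNA of 14 sinusoidal endothelial markers ranged from 216 to 445 CPM in HFD and from 273 to 367 CPM in CD, and that of 14 Kupffer cell markers from 188 to 501 CPM in HFD and from 242 to 354 CPM in CD. That of 17 hepatocyte markers was 155978 to 184435 CPM in HFD and 137631 to 154302 CPM in CD, without overlap. Of this sum Alb alone gave 73258 to 92422 CPM in HFD and 65200 to 80343 CPM in CD. The diets overlapped at Alb (adjusted p = 0.316), and 4 of the 17 genes passed, all higher in HFD, beside 3.63% of all genes. Of 7 measured bile duct markers 1 passed, lower in HFD. Of the endothelial, Kupffer cell, stellate cell and lymphocyte markers 0 passed. Markers of stellate cells (339 to 583 CPM in HFD, 434 to 511 in CD) and lymphocytes (9.91 to 20.3 CPM in HFD, 11.3 to 13.6 in CD) overlapped, those of bile duct cells (57.7 to 84.8 CPM in HFD, 85.4 to 101 in CD) did not, and no marker list had a measured member at 0 in all libraries. The part of these differences in the results was not tested.

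**Figure D5:**
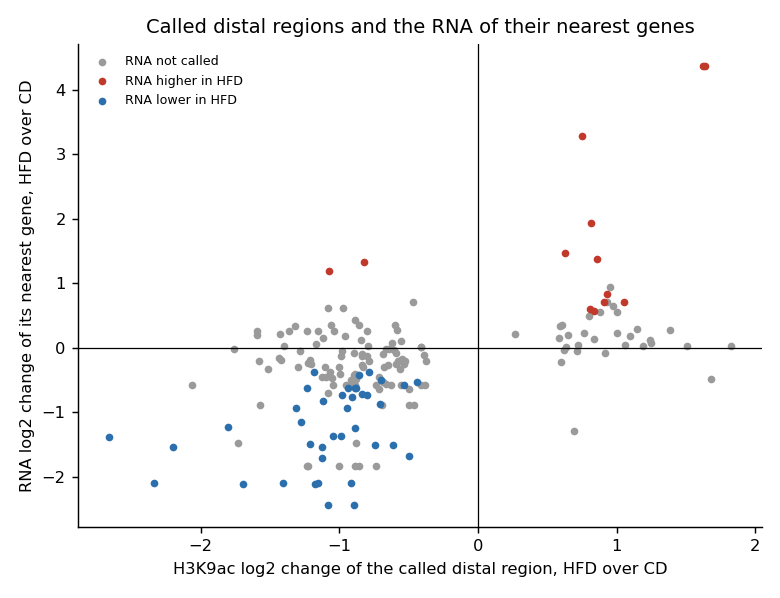
RNA change of the nearest gene (y axis, log2 of HFD over CD) against the H3K9ac change of 186 called distal regions (x axis, log2 of HFD over CD). Points are regions, coloured by whether the RNA passed in either direction, and 1 region, that of Cyp2b9, lies beyond the axis limit of 5. Of regions lower in HFD, 39 have a lower and 2 a higher RNA, and of regions higher in HFD, 12 have a higher RNA.

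Grouped by pathway lists, the called regions stood near few members. Of all distal regions 0.598% were higher and 1.83% lower, and of all regions 0.835% and 1.55%, so that lists with few regions would hold at most a few calls at those shares. Of 86 distal regions near 15 genes of glucose and insulin metabolism 9 were lower and 0 higher, 5 at Ppp1r3b and 4 at Sik1, with a median log2 change of -0.08. Of 25 near 12 genes with higher expression in male liver 6 were lower and 0 higher: 4 at Selenbp2 and 1 each at Cyp2d9 and Nudt7, with a median of -0.69, beside -0.02 over all distal regions. Of the Selenbp2 calls, only that 10616 bases upstream also passed in the authors' table (false discovery rate 0.0118). The Cyp2d9 call was lost in 3 of the 6 fits that left out a library, with adjusted p values up to 0.13. Of 7 distal regions near genes with higher expression in female liver 1, at Cyp2b9, was higher. In the RNA 13 of 21 male-biased genes were lower (3.64% of all genes were) and 9 of 12 female-biased genes higher (3.63% of all genes were). The lists, here and below, were chosen with earlier results of these data known. Their shares therefore describe the lists and do not test whether a pathway responds.

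Of 24 distal regions near 7 clock genes 1 was higher, 27183 bases upstream of Hlf, a bZIP factor of the clock output (chr11:90417687-90418511). It had 10.4, 11.3 and 8.9 CPM in HFD A, B and D, against 4.91, 6.42 and 5.84 CPM in CD A, C and D (log2 change 0.84, SE 0.18, adjusted p = 0.00278, but 0.079 without HFD B). The diets were apart, and the RNA of Hlf was higher too (log2 change 0.56, adjusted p = 0.0266, but up to 0.107 with a library left out). Among 22 clock genes the RNA was higher for 15 and lower for 4, beside 3.63% and 3.64% of all genes. The region 86934 bases upstream of Nfil3, a repressor of clock output, had 0.766, 1.65 and 1.1 CPM in HFD and 2.14, 3.08 and 2.18 CPM in CD and did not pass (log2 change -1.07, adjusted p = 0.0718), while its RNA was lower, with 22.4, 17.1, 16.9 and 16.9 CPM in HFD A to D, against 68.5, 59.6, 58.9 and 55.2 CPM in CD A to D (log2 change -1.72, SE 0.12, adjusted p = 6.21e-05). Of 102 regions near 20 hepatocyte transcription factors 1 was higher, 15889 bases downstream of the start of Bcl6, a repressor of lipid genes (chr16:23972163-23973282), with 36.1, 40.9 and 25.6 CPM in HFD and 24.2, 22.9 and 16.6 CPM in CD (log2 change 0.69, SE 0.13, adjusted p = 0.000341, but 0.0811 without HFD B). The RNA of Bcl6 ranged widely and did not pass (log2 change -1.30, adjusted p = 0.238).

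None of the 43 distal regions near cholesterol synthesis genes passed, nor the 20 near bile acid and sterol transport genes, the 18 near fatty acid oxidation genes, the 41 near lipogenesis and lipid droplet genes, the 13 near acute phase and complement genes or the 50 near immediate early genes, by edgeR. With 2.43% of all distal regions called, counts of 0 in lists of this size are near the background and say nothing particular of these genes. In the RNA 15 of 23 cholesterol synthesis genes and 7 of 17 immediate early genes were lower, beside 3.64% of all genes. The choice of lists limits this comparison too. The regions upstream of Fads2, a fatty acid desaturase, had log2 changes of 0.70 and 1.07 (adjusted p = 0.217 and 0.379), while its RNA was higher (log2 change 1.27, adjusted p = 0.00189). The region of Atf3, a stress-induced factor, had 60.2, 57.8 and 67.3 CPM in HFD and 78, 76.3 and 71.2 CPM in CD (log2 change -0.29, adjusted p = 0.0587). Near endothelial marker genes 1 of 12 regions was lower, that of Tie1, and near the other marker genes 0 were called.

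The authors' table also lists target genes for some regions under the name of 3T3-L1, a mouse preadipocyte line. A target was listed for 579 distal regions (5.59%), against 1035 deep intronic (7.36%) and 1460 promoter-proximal regions (10.6%). The nearest gene was among the listed targets for 75 of the 579. Of these 579 regions 4 were higher and 11 lower in HFD (2.59%, near the 2.43% of all distal regions), and of 9 measured targets of the called ones 0 had an RNA that passed.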

How the data were processed

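The members and the gene lists were chosen with earlier results of these data known. The authors deposited raw read counts per H3K9ac region, in 1 set of 57499 regions common to the libraries, and raw read counts per gene for 12334 genes, per the file headers. Their table also gave a log2 fold change and a p-value with its false discovery rate, deposited by the authors per region. Coordinates are on mm10, as the submitters' processing notes name it. The aligner, the peak caller, the counter and its use of strand were not given in the sources used here. Lines repeating a region were used once, 4999 blank RNA lines were left out, and 12 distal regions had no readable gene name. No input was subtracted, so values include background. Total counts were 9255635 to 12149497 per H3K9ac library and 31802893 to 37596560 per RNA library, and the floor of 3 counts covers counting error only.

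Diets were compared in R 4.3.3 with edgeR 4.0.16 (TMM scaling, filterByExpr, which removed 0 regions and 0 genes, glmQLFit and glmQLFTest with diet as the only term), two-sided, over all regions or all genes, with Benjamini-Hochberg adjustment and a threshold of 0.05. Sums per nearest gene were fitted apart with the same functions, with the library totals and scaling of all regions and adjustment over the 4505 sums. Adjusted p values come from these fits, or from their repeats without a library or with the letter as a block where so named. Levels are TMM-scaled CPM. Alternatives were other scalings, limma 3.58.1, DESeq2 1.42.0, level filters, left-out libraries and the shared letter as a block. Shares of counts were compared by exact permutation. The scripts were tested on simulated data.

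Named regions are called ones of at least the median level whose diets do not overlap (10 largest changes each way), the 10 highest by CPM and by CPM per kb, the nearest genes with most regions, and up to 2 regions per gene list. Regions with a start site, loci with 3 or more calls, genes called in both assays and the sums per gene were added after the values had been seen. Region starts and ends are 1-based, and start sites were compared off chromosome 18. In the comparisons by level and by call, the 308 distal regions on that chromosome count as lacking a start site. With no genome given, sequences come from the RefSeq promoter table of GRCm38.p6, whose start sites matched 61.6% of the authors' start positions, in place of the middle of each region.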

Additional observations from a re-analysis of the deposited data

Results flagged for a closer look

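In the RNA of nearest genes of the named regions, 188 groups of 4 libraries were examined and 16 held 1 library far from the other 3, by a gap over the group's range above Dixon's critical value, which chance exceeds in about 1 of 20 groups. Values below are CPM, and the ratio is the gap over the range on the log2 scale. Btf3l4 had 15.8 CPM in HFD A, with 14 to 14.2 CPM in the other HFD libraries (ratio 0.881). Fam214a had 109 CPM in HFD A, with 94.1 to 96.2 CPM in the other HFD libraries (ratio 0.851). Nfil3 had 22.4 CPM in HFD A, with 16.9 to 17.1 CPM in the other HFD libraries (ratio 0.95). Pcgf5 had 5.26 CPM in HFD A, with 7.96 to 8.64 CPM in the other HFD libraries (ratio 0.834). Pnrc1 had 65.6 CPM in HFD A, with 45.3 to 45.5 CPM in the other HFD libraries (ratio 0.992). Osgin1 had 78.3 CPM in HFD B, with 134 to 142 CPM in the other HFD libraries (ratio 0.903). Acot11 had 13.6 CPM in HFD C, with 16.7 to 17.2 CPM in the other HFD libraries (ratio 0.877). Bach2 had 33.8 CPM in HFD C, with 11.1 to 12.8 CPM in the other HFD libraries (ratio 0.867). Cyp7b1 had 367 CPM in HFD C, with 170 to 189 CPM in the other HFD libraries (ratio 0.86). Pvrl1 had 69.8 CPM in HFD C, with 81.3 to 82.6 CPM in the other HFD libraries (ratio 0.909). Fignl2 had 9.53 CPM in CD A, with 12.5 to 13.1 CPM in the other CD libraries (ratio 0.844). 4931406P16Rik had 14.7 CPM in CD B, with 12.4 to 12.5 CPM in the other CD libraries (ratio 0.951). Cyp2b9 had 0 CPM in CD C, with 0.0266 to 0.031 CPM in the other CD libraries (ratio 0.882), all of them under the floor of 3 counts, so that the libraries cannot be told apart at this depth. Rbpms had 30.4 CPM in CD C, with 34.7 CPM in the other CD libraries (ratio 0.995). 9130409I23Rik had 20.5 CPM in CD D, with 15.9 to 16.6 CPM in the other CD libraries (ratio 0.835). Nr4a1 had 15.8 CPM in CD D, with 3.53 to 4.56 CPM in the other CD libraries (ratio 0.831).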

How the results depend on the processing

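The number of distal regions called was 252, and the count was 145 with DESeq2, 156 when regions at or above the median level were tested, 71 over 50000 bases from a start site, and 142 without the regions that overlap a RefSeq gene, a setting chosen after seeing the data. Leaving out a library gave 102 to 318. Over all regions the count was 1372, with 798 by DESeq2, 887 at or above the median level, and 563 to 1862 with a library left out. For sums per nearest gene it was 148, and 64 to 210 with a library left out. For RNA of nearest genes it was 325, with 472 by DESeq2, and 185 to 365 with a library left out. Which direction was the more frequent changed with the setting: scaling by library totals gave 136 higher and 162 lower. The distal to deep intronic log2 ratio was close to 0 (-0.00189), ran from -0.0265 to 0.0191 with a library left out, and was 0.0367 within letters. The distal share and the distal to promoter ratio kept their sign in every setting run. The median distal change ran from -0.0318 to 0.0002 with a library left out. By the rule used, letters do not pair the samples: correlations of deviations were 0.0898 and 0.081 in H3K9ac and -0.222 to 0.295 in RNA. With the letter as a replicate block 185 distal regions (154 of the 252), 1277 of all regions 106 sums and 304 nearest genes were called, the Sik1 sum had an adjusted p of 0.00127 and that of A530013C23Rik 0.0964, and the median change was -0.0385. Of 122 named called regions, 0 reversed in any setting; 76 kept the call with DESeq2, 63 without HFD B and 88 under the block. Depth limits the low levels: under 2 CPM 0.413% of distal regions were called.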
